A study of Arabidopsis thaliana with 6 samples.

Results

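The nuclear photosynthesis genes RCA and LHCB4.1 were followed in root tips of Arabidopsis thaliana. RCA (AT2G39730) encodes Rubisco activase, and LHCB4.1 (AT5G01530) encodes a light-harvesting protein of photosystem II. They were chosen by name through the annotation of the ATH1 array, which gave 1 probe set to each gene, so that 2 of 22746 probe sets, or 2 of the 13356 genes with a probe set of their own, are described. Neither probe set was shared with another gene, and both passed the filter on low signals described below. Signals were measured in root tips of seedlings aged 7 days on 6 arrays, in 3 groups of 2 arrays. The first group was untreated Col-0 at 0 min, the second untreated Col-0 at 120 min, and the third was labelled as treated with gibberellin (GA) for 120 min. The third group had Col-0 as its genetic background, and also carried the source name GA2oxOE1I and the label gene knock out, so treatment and plant line cannot be told apart. All plants were grown on tilted plates with sucrose in continuous light. Both genes are read here as transcripts typical of green tissue, by group.

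Rubisco activase is an ATP-driven chaperone of the chloroplast that frees Rubisco, the carbon-fixing enzyme of the Calvin cycle, from sugar phosphates that block it. LHCB4 proteins, also called CP29, bind chlorophyll and link the main antenna of photosystem II to its core. Both kinds of gene lie in the nucleus, their proteins are imported into plastids, and in leaves their transcripts are abundant and rise with light. Roots hold mostly colourless plastids, but roots kept in light can form some chlorophyll.

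The arrays were read as MAS5 signals, a linear brightness per probe set, and the mean after trimming the lowest and highest values was the same on every array. Precision is limited by the number of arrays. The replicate 1 arrays differed from the replicate 2 arrays in RNA controls. The 3' to 5' signal ratio of the actin control was 4.94 on untreated replicate 1 at 0 min, 4.44 on untreated replicate 1 at 120 min and 14.8 on GA replicate 1, against 2.22 to 2.52 on the 3 replicate 2 arrays. A high ratio is known as a sign of RNA that is broken or incompletely copied. The correlation between the replicates of a group over 13647 tested probe sets was 0.957 for untreated roots at 0 min, 0.944 for those at 120 min and 0.905 for GA roots. Probe sets are not independent replicates.

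The tissue label was set against marker genes. Of 37 listed root tip markers, 6 were measured, and 5 passed the signal filter. PYK10, a beta-glucosidase abundant in roots, read 4227 to 5511 over the 6 arrays, and EXPA7, an expansin of root hairs, read 175 to 391. EXPA18 read 250 to 319, AGL42 60.6 to 102 and JKD 28.9 to 71.1. BBM did not pass and read 1.46 to 23.6, as low as the shoot and leaf markers. Of 33 listed shoot and leaf markers, 5 were measured and 0 passed the filter. These were CLV3 of the shoot meristem, FMA (FAMA), MUTE and SPCH of the stomatal lineage, and YAB3 of leaf primordia. Their signals lay between 0.79 and 23.8, and none was at 0. Summed per array, the shoot and leaf markers ran from 14.1 to 51.1 in untreated roots at 0 min, from 10.6 to 39.5 at 120 min, and from 36.8 to 47.4 in GA roots.

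The signals of RCA were 156 and 219 at 0 min, 138 and 339 after 120 min without treatment, and 109 and 202 on the GA arrays, in each case replicate 1 first. The highest array was thus untreated replicate 2 at 120 min and the lowest GA replicate 1, and the signals of the 3 groups overlapped. The means were 187 ± 44.4 at 0 min, 238 ± 143 at 120 min and 155 ± 65.9 in GA roots (SD, n = 2 for each). In each group replicate 2 read above replicate 1, being 2.47 times as high in untreated roots at 120 min and 1.86 times as high in GA roots. The array with the highest RCA signal read 3.12 times the one with the lowest.

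LHCB4.1 had signals of 71.8 and 57.5 at 0 min, 45.3 and 123 after 120 min without treatment, and 41.9 and 72.8 on the GA arrays. Its highest array was again untreated replicate 2 at 120 min and its lowest GA replicate 1, and the groups overlapped. The means were 64.6 ± 10.1, 84.0 ± 54.7 and 57.3 ± 21.9 in the same order (SD, n = 2 for each). Unlike RCA, LHCB4.1 was higher on replicate 1 than on replicate 2 at 0 min, by 1.25 times. At 120 min replicate 2 read 2.71 times replicate 1 in untreated and 1.74 times in GA roots. In bulk tissue such as this, fewer green cells and less RNA per cell cannot be told apart.

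**Figure D1:**
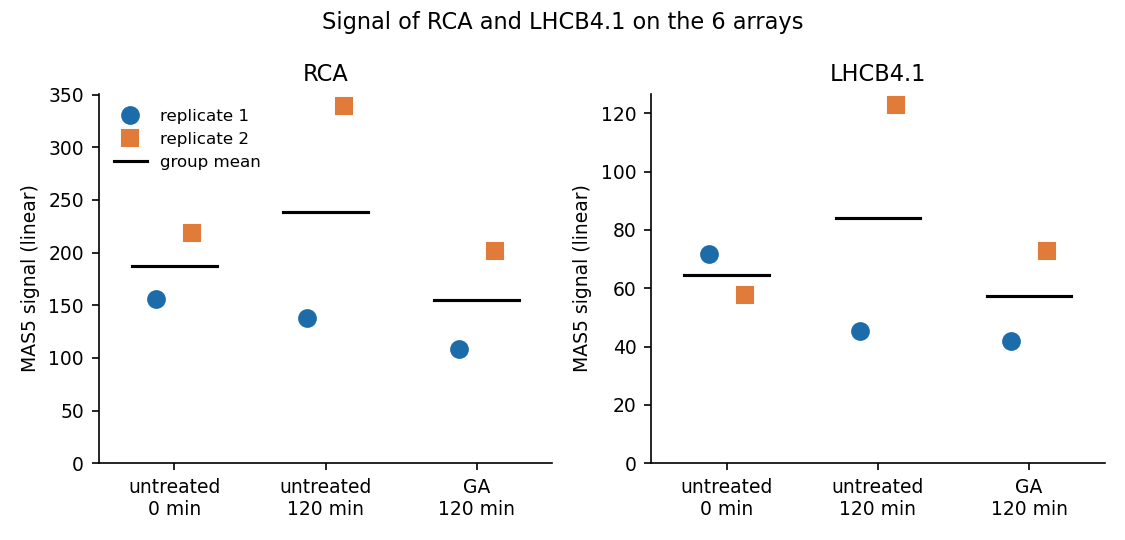
Linear MAS5 signal (vertical axis) of RCA and LHCB4.1 on each array, by group (horizontal axis), with circles for replicate 1, squares for replicate 2 and a black line for the mean of the 2 arrays. For both genes untreated replicate 2 at 120 min is the highest array (339 and 123) and GA replicate 1 the lowest (109 and 41.9), and no group is separate from the others.

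For both genes the group means had the order untreated 120 min, untreated 0 min, GA 120 min, from high to low, and no neighbours in that order differed beyond their spread. Tests were made with limma on log2(signal + 16), which understates the change of dim genes, over all 13647 probe sets whose mean signal lay above the 40th percentile (25.8), with p-values adjusted by the Benjamini-Hochberg method. With 2 arrays against 2, an exact two-sided permutation test of a single gene cannot give a p below 0.333, so the fit across probe sets was used. The labels do not state whether replicates are separate cultures, so p-values cover only the spread among these arrays, which may be technical.

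Between GA and untreated roots at 120 min, RCA differed by -0.50 in log2 (standard error 0.42, 95% confidence interval -1.46 to 0.45), a mean 1.42-fold lower in GA roots. The limma adjusted p was 0.999. LHCB4.1 differed by -0.36 (standard error 0.39, interval -1.26 to 0.53), or 1.29-fold lower on that scale, with the same adjusted p. Neither gene passed, and both intervals hold a fall of more than 1 in log2 as well as a rise. At the threshold of 0.05, limma called 0 of 13647 probe sets in this comparison, or 0%, with 152 at an unadjusted p under 0.05 (1.11%). Among arrays that share a replicate number, the difference of RCA was -0.30 for replicate 1 and -0.71 for replicate 2, and that of LHCB4.1 was -0.083 and -0.64. Both genes were thus lower in GA roots at both replicate numbers, as were 21.7% of all tested probe sets.

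The sign of both differences rested on 1 array. Without untreated replicate 2 at 120 min the difference of RCA turned to 0.10 and that of LHCB4.1 to 0.23. Without untreated replicate 1 at 120 min they were -1.11 and -0.95, and without GA replicate 1 they shrank to -0.10 and -0.054. Without GA replicate 2 they were -0.91 and -0.67. The adjusted limma p over these fits and those without a 0 min array lay between 0.506 and 1.00 for RCA and between 0.599 and 1.00 for LHCB4.1. GA replicate 1 is also the array with the highest actin 3' to 5' ratio, and the part of RNA quality in the result was not tested.

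**Figure D2:**
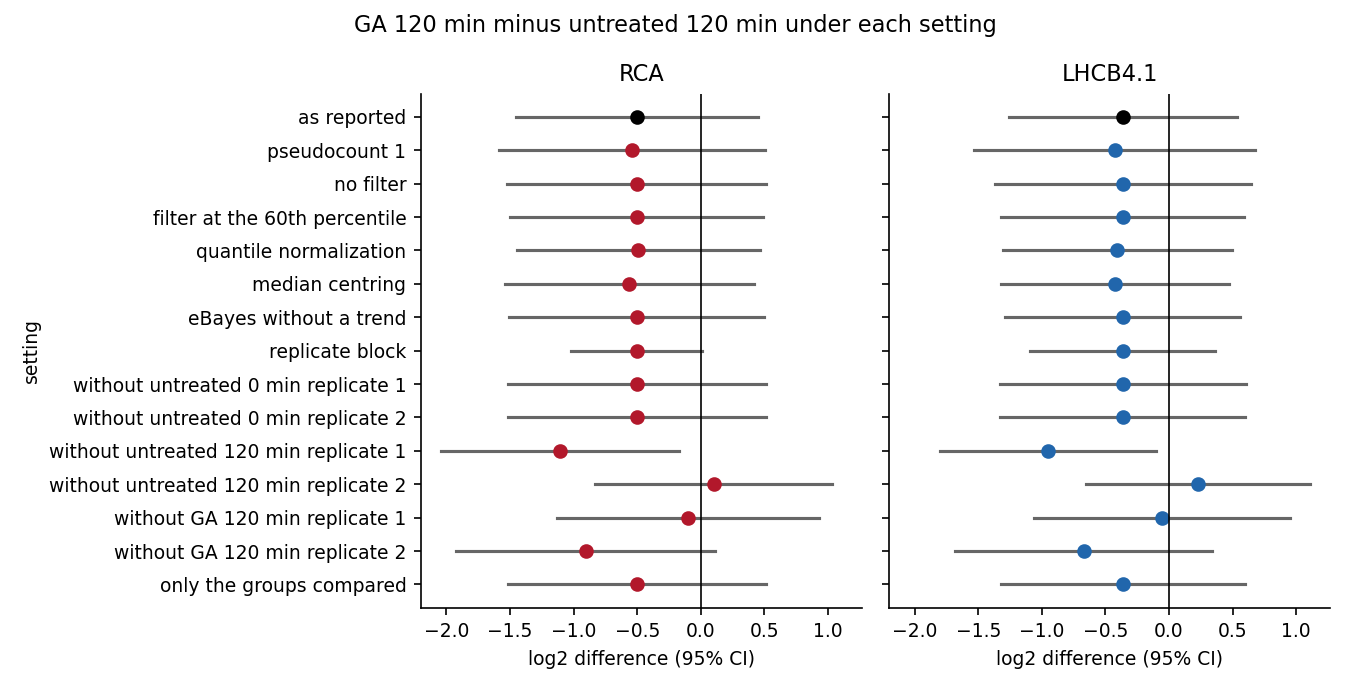
Log2 difference of RCA and of LHCB4.1 between GA and untreated roots at 120 min (horizontal axis, point with 95% confidence interval) under each setting of the processing (vertical axis), the reported one in black. The points of RCA run from -1.11 to 0.10 and those of LHCB4.1 from -0.95 to 0.23, with the ends set by leaving out 1 untreated array at 120 min.

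In untreated roots between 0 and 120 min, RCA differed by 0.22 in log2 (standard error 0.42, interval -0.73 to 1.17, limma adjusted p = 1.00). LHCB4.1 differed by 0.20 (standard error 0.39, interval -0.70 to 1.09, limma adjusted p = 1.00). The replicate numbers went opposite ways. RCA differed by -0.16 for replicate 1 and 0.60 for replicate 2, and LHCB4.1 by -0.52 and 0.92. limma called 0 of 13647 probe sets, or 0%, with 147 at an unadjusted p under 0.05 (1.08%). Without untreated replicate 2 at 120 min both differences turned to -0.39, and without untreated replicate 1 at 0 min that of RCA was -0.0059.

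GA roots at 120 min were also set against untreated roots at 0 min. This comparison holds time as well as treatment or plant line, and shares its arrays with the other 2. RCA differed by -0.28 (standard error 0.42, interval -1.24 to 0.67) and LHCB4.1 by -0.16 (standard error 0.39, interval -1.06 to 0.73), each with a limma adjusted p of 1.00. Here too limma called 0 of 13647 probe sets, or 0%, with 352 at an unadjusted p under 0.05 (2.58%). Without GA replicate 1 both differences turned positive, to 0.12 for RCA and 0.15 for LHCB4.1.

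The spread between the replicates of untreated roots at 120 min was large for both genes. Replicate 2 exceeded replicate 1 by 1.21 in log2 for RCA and 1.18 for LHCB4.1, where the median size of that gap over all tested probe sets was 0.28. Only a small part of the tested probe sets had a larger gap, since 98.1% and 97.9% had a smaller one. In GA roots the gaps were 0.80 for RCA and 0.62 for LHCB4.1 against a median size of 0.37, and 83.8% and 72.7% of probe sets had a smaller gap. At 0 min they were 0.45 and -0.26 against 0.25.

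Other nuclear genes of photosynthesis were read beside them. Of 137 genes in 7 lists (antenna, photosystem I, photosystem II, electron transport and ATP synthase, Calvin cycle, photorespiration, chlorophyll synthesis), 24 were measured by a probe set of their own, RCA and LHCB4.1 included. Of these 24, 22 passed the signal filter. HPR, the hydroxypyruvate reductase of photorespiration, and CHLI2, a subunit of the chelatase that puts magnesium into a precursor of chlorophyll, did not pass. HPR read 7.37 and 54.2 in untreated roots at 120 min and 18.1 to 26.3 on the other 4 arrays, and CHLI2 read 3.03 to 22.6.

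The 20 tested genes besides RCA and LHCB4.1 went with them between the untreated arrays at 120 min, but mostly against them between the GA arrays. In untreated roots at 120 min, replicate 2 was above replicate 1 for 18 of the 20, as it was for 46.9% of all tested probe sets. The 18 held PSAN, a subunit of photosystem I on its lumen side (37.8 and 86.9), and PRK, the phosphoribulokinase of the Calvin cycle (30.2 and 61.2). They also held PSBY, a small subunit of photosystem II (86.8 and 136). In GA roots replicate 2 was above replicate 1 for 6 of the 20, against 46.4% of all tested probe sets, while RCA and LHCB4.1 were both higher on replicate 2. On GA replicates 1 and 2, PSBW, a small subunit of photosystem II, read 248 and 118, and SBPASE, the sedoheptulose bisphosphatase of the Calvin cycle, 98.9 and 59.0. LHCB4.3 (59.6 and 16.1) passed the signal filter only through the GA group, so it is given as a value only. At 0 min replicate 2 was above replicate 1 for 11 of the 20 (47.8% of all tested probe sets). This comparison of replicates is a description of single arrays and was not tested.

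**Figure D3:**
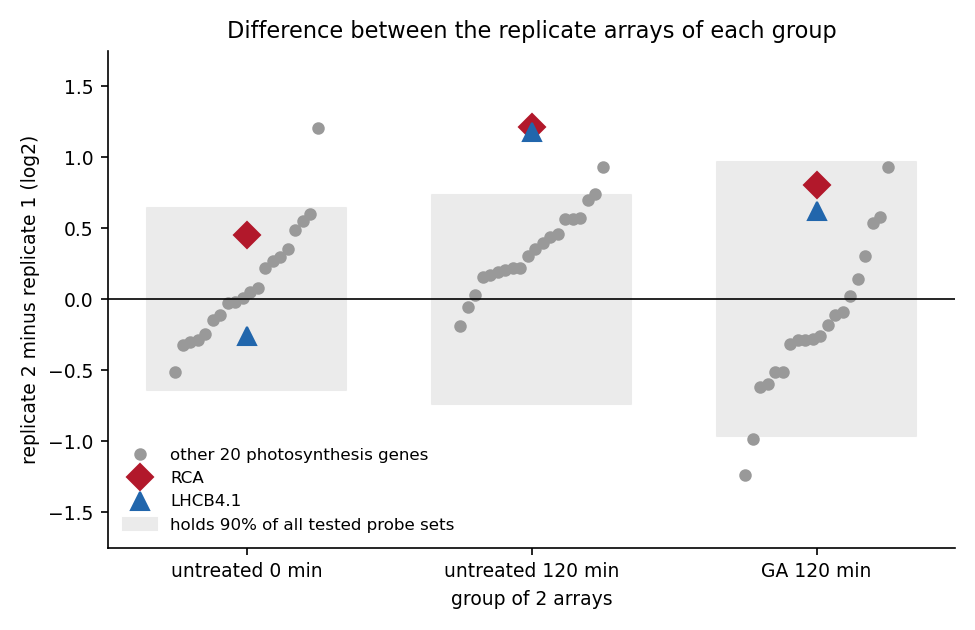
Replicate 2 minus replicate 1 in log2(signal + 16) (vertical axis) within each group (horizontal axis) for RCA (diamond), LHCB4.1 (triangle) and the other 20 tested photosynthesis genes (grey circles, sorted from low to high), with a band that holds 90% of all tested probe sets. RCA and LHCB4.1 lie above the band and above all 20 in untreated roots at 120 min (1.21 and 1.18), and 14 of the 20 lie below 0 in GA roots, where RCA and LHCB4.1 are at 0.80 and 0.62.

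The 2 relatives of LHCB4.1 encode the other CP29 proteins and were measured by probe sets of their own. LHCB4.2 read 42.2 and 42.5 in untreated roots at 0 min, 22.1 and 34.3 at 120 min, and 22.5 and 20.3 in GA roots. Its 0 min arrays lay above the other 4. LHCB4.3 read 23.2 and 24.6, then 23.5 and 29.1, and in GA roots 59.6 and 16.1, so its highest and its lowest array were both GA arrays. LHCB4.2 passed the signal filter of 25.8 only through its 0 min arrays (mean 42.3, against 24.8 over the other 4 arrays), and LHCB4.3 only through GA roots (37.9 against 25.1). Their log2 differences from those groups are therefore given as values with no test. LHCB4.2 differed by -0.64 between GA roots and untreated roots at 0 min and by -0.41 between untreated roots at 120 and 0 min. Groups did not overlap, with the later one lower, for 15% and 15.8% of all tested probe sets. The signals of different probe sets cannot be set against each other as levels.

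By function, the measured genes showed no list in which a member passed in any of the 3 comparisons. Between GA and untreated roots at 120 min, 8 of the 22 tested genes had higher and 14 lower means in GA roots. Their median log2 difference was -0.045, where all tested probe sets had a median of 0.0092 and 51.3% were higher. LHCB4.3 was among the 8 (0.22) and passed the signal filter only through the GA group. It therefore stands in the counts and medians of this comparison as a value only. Without untreated replicate 2 at 120 min, 17 of the 22 were higher and 5 lower, with a median of 0.18. Without RCA and LHCB4.1 there were 8 higher and 12 lower, with a median of -0.016. RCA had the lowest value of the 22 and SBPASE the highest (0.38). At equal replicate numbers, 5 of the 20 other genes were lower in GA roots and 15 higher for replicate 1, where 47.7% of all tested probe sets were lower. For replicate 2, 15 of the 20 were lower, as were 49.2% of all tested probe sets. The GA groups did not overlap the untreated ones at 120 min for 4 of the 22, with 2 lower (10.3% of all tested probe sets) and 2 higher (11.4%). These 4 were ATPC1, the gamma subunit of the chloroplast ATP synthase (175 and 195 against 199 and 259), HEMA2, a glutamyl-tRNA reductase (67.1 and 52.1 against 75.2 and 96.6), ATPC2 (52.2 and 44.2 against 38.2 and 31.6), and PGRL1B of cyclic electron flow (68.2 and 69.4 against 47.0 and 57.4).

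In untreated roots 15 of the 22 genes had higher and 7 lower means at 120 than at 0 min, with a median of 0.079 against -0.020 over all tested probe sets, of which 46.3% were higher. This direction rested on untreated replicate 2 at 120 min. Without it 8 of the 22 were higher and 14 lower, with a median of -0.087. Of the 20 other genes, 12 were lower at 120 min for replicate 1 and 15 were higher for replicate 2. The matching shares of all tested probe sets were not taken for this comparison, so these counts have no background beside them. PORB, a protochlorophyllide oxidoreductase that makes chlorophyll precursors in light, read 43.2 and 53.1 at 120 min and 5.61 and 33.9 at 0 min. Its log2 difference of 0.96 was the highest of the 22 and is given with no test, since its 0 min mean of 19.8 lay below the filter, which it passed through the 120 min groups (48.2 and 45.8). Its lowest array was untreated replicate 1 at 0 min, and the difference was 1.45 for replicate 1 and 0.47 for replicate 2. The groups did not overlap for 4 of the 22 (27% of all tested probe sets). ATPC1, HEMA2 and PORB read higher at 120 min (11.3%) and LHCB4.2 lower (15.8%). PORB and LHCB4.2 passed the filter through the groups where they were high. They therefore stand as values only in this count and in the counts by direction and medians above. Chlorophyll synthesis had 6 of 7 tested members higher at 120 min, PORB among them as a value only, with a median of 0.064. For replicate 1, GSA1 (-0.094), HEMB1 (-0.038) and CHLM (-0.30) were lower, and for replicate 2 HEME1 (-0.13) and CHLM (-0.20). The share higher was 2 of 3 for the antenna, 1 of 2 for photosystem I and 3 of 4 for photosystem II. It was 1 of 3 for electron transport and ATP synthase and 2 of 3 for the Calvin cycle. In GA roots against untreated roots at 0 min, 13 of the 22 were higher and 9 lower, with a median of 0.066 against -0.012 over all tested probe sets, of which 48.2% were higher. Groups did not overlap for 4 of them (28% of all tested probe sets), with PORB, SBPASE and PGRL1B higher (13%) and LHCB4.2 lower (15%). PORB and LHCB4.2 again stand as values only, in this count and in the count by direction and its median. So does LHCB4.3, among the 13 (0.30), which passed only through the GA group.

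**Figure D4:**
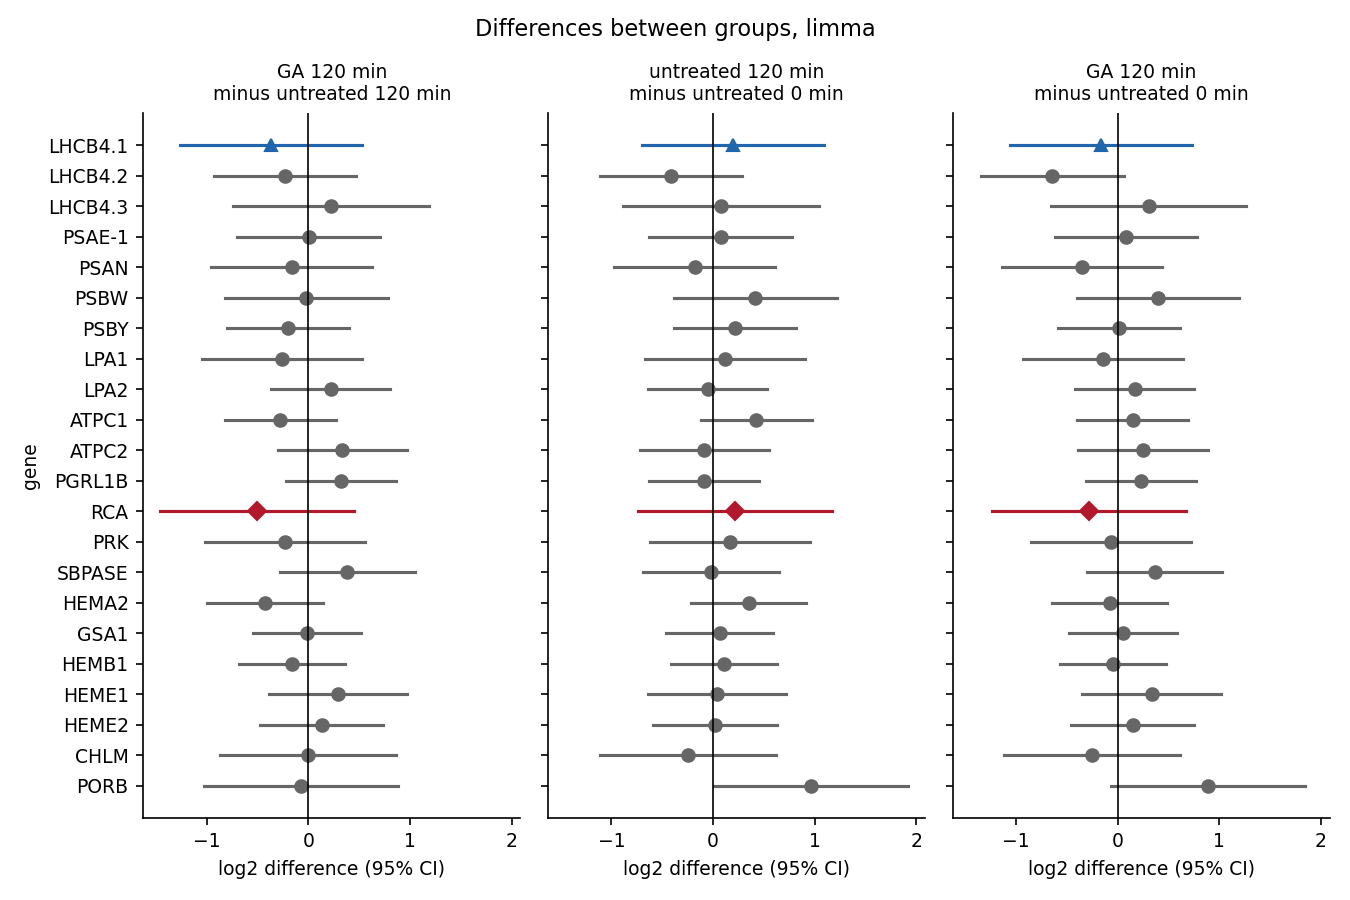
Log2 difference with its 95% confidence interval from limma (horizontal axis) for the 22 tested photosynthesis genes (vertical axis) in the 3 comparisons, with RCA as a red diamond and LHCB4.1 as a blue triangle. The intervals of RCA and LHCB4.1 include 0 in each comparison. PORB has the largest difference from untreated roots at 0 min (0.96 and 0.89), where it lay below the signal filter. LHCB4.2 and LHCB4.3 passed that filter through 1 group each. The intervals drawn for PORB, LHCB4.2 and LHCB4.3 are not read as tests. This holds also between untreated roots at 120 and 0 min, where that of PORB leaves out 0 (0.0054 to 1.92).

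**Figure D5:**
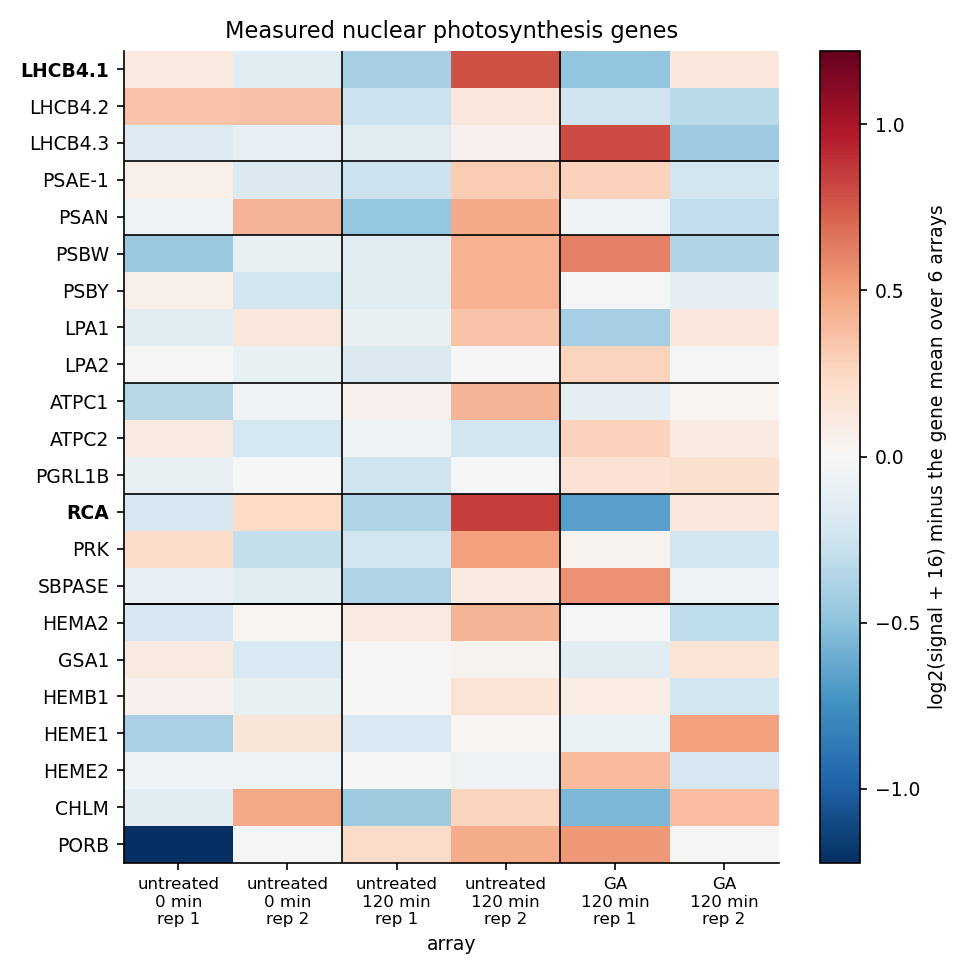
Signal of the 22 tested photosynthesis genes (vertical axis, grouped by list with black lines) on the 6 arrays (horizontal axis), as log2(signal + 16) minus the mean of each gene over the arrays, with red for higher and blue for lower. RCA and LHCB4.1 (bold) are reddest on untreated replicate 2 at 120 min and blue on GA replicate 1, where PSBW, SBPASE and LHCB4.3 are red. LHCB4.3 passed the signal filter only through the GA group.

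Regulators were covered thinly. Of 23 listed greening regulators 1 was measured, HYH, a bZIP transcription factor related to HY5 that acts in light signalling, and it read 96.5 to 141 over the 6 arrays. Its difference between GA and untreated roots at 120 min was -0.086 (interval -0.66 to 0.49). Of 16 listed clock genes GI alone was measured, at 44.3 to 97.5, and its lowest array was GA replicate 1, as for RCA and LHCB4.1.

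The patterns of RCA and LHCB4.1 over the 6 arrays were close to each other. The distance between patterns was taken as the root mean square difference of log2(signal + 16) values centred on the mean of each gene. It was 0.22 between RCA and LHCB4.1, where the median distance to the 7452 compared probe sets of 1 gene was 0.56 for RCA and 0.50 for LHCB4.1. LHCB4.1 was the probe set at rank 72 from RCA, and RCA was at rank 59 from LHCB4.1. Among the other photosynthesis genes, LPA1, an assembly factor of photosystem II, and CHLM, a methyltransferase of chlorophyll synthesis, were closest to RCA, at 0.26 and 0.28. LPA1 and PSBY were closest to LHCB4.1, at 0.27 and 0.29. LPA1 read 24.8 and 33.0 in untreated roots at 0 min, 25.6 and 40.5 at 120 min, and 17.6 and 32.7 in GA roots. The other CP29 genes lay at 0.41 (LHCB4.2) and 0.66 (LHCB4.3) from LHCB4.1. PORB and LHCB4.3 were the farthest from both, at 0.66 to 0.75.

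The genes with patterns nearest to RCA over the 6 arrays were AT3G52800, AT3G61260, AT2G48130, AT1G23040 and AT4G30060, at distances of 0.071 to 0.13. AT3G52800 read 178 and 253 at 0 min, 153 and 367 after 120 min without treatment, and 138 and 249 in GA roots, so that it repeated the order of replicates seen for RCA in each group. The nearest to LHCB4.1 were AT1G53710, AT4G01290, AT2G21560, AT1G62510 and SFP1, at 0.081 to 0.14. AT1G53710 read 47.9 and 45.2, then 26.6 and 85.4, and in GA roots 27.9 and 48.5. None of these 10 was in a photosynthesis list. The points share arrays and RNA quality, so likeness over 6 arrays is a description.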

How the data were processed

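Root tips were profiled on 6 ATH1 arrays, and the groups and replicate numbers came from the sample titles. The deposited intensity values are linear MAS5 signals per probe set. The submitters' processing notes list MAS5 and GCOS with no version or role. Total RNA was turned into biotin-labelled target by one-cycle labelling, per the labels' protocols. Detection calls were not used here. Of 22810 probe sets, 64 array controls served only to describe quality. Gene names came from a platform annotation of 2016, and were updated by gene ID from RefSeq's TAIR10.1 table. Of 22746 probe sets, 13513 matched 1 gene, 503 several, and 8730 were not listed. Identifiers of 13436 of the 13513 were in the RefSeq table.

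Signals were taken to log2(signal + 16), probe sets with a mean above the 40th percentile were kept (13647), and limma 3.58.1 in R 4.3.3 was fitted to all 3 groups at once (eBayes with a trend, 3 residual and 5.80 prior degrees of freedom, two-sided). The script was checked on simulated data with 200 changed probe sets. The genes and the 11 lists (246 entries) were chosen with earlier results of these data known. Of the matches, 4 were dropped because the symbol led to another gene (cytosolic TPI, F2KP, THO1 and formate dehydrogenase). Named in the text or on the axes of the figures were both genes, every measured list member, and the 5 nearest patterns of each gene. Alternatives were another pseudocount, other filters, quantile normalization, median centring, eBayes without a trend, the replicate number as a block, a fit of the compared groups only, and leaving out each array. The list medians under these settings were added after seeing the data.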

Additional observations from a re-analysis of the deposited data

How the results depend on the processing

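Under the 8 alternatives that kept the arrays of a comparison, the log2 differences of RCA and LHCB4.1 held their sign and did not pass in any of the 3 comparisons. RCA ran from -0.56 to -0.49 between GA and untreated roots at 120 min and LHCB4.1 from -0.43 to -0.36. With the replicate number as a block, RCA differed by -0.50 (interval -1.02 to 0.012, unadjusted p = 0.0544, limma adjusted p = 0.998) and LHCB4.1 by -0.36 (interval -1.09 to 0.37), and 0 probe sets were called. Replicate 2 minus 1 correlated at 0.307 to 0.360 between the groups across probe sets, while the labels name nothing shared by a number. With each array left out, RCA ran from -1.11 to 0.10 and LHCB4.1 from -0.95 to 0.23 between GA and untreated roots at 120 min, with the positive ends (0.10 and 0.23) without untreated 120 min replicate 2. Between 120 and 0 min RCA ran from -0.39 to 0.82 and LHCB4.1 from -0.39 to 0.79. RCA turned to -0.39 without untreated 120 min replicate 2 and to -0.0059 without untreated 0 min replicate 1, and LHCB4.1 to -0.39 without untreated 120 min replicate 2. Between GA roots and 0 min RCA ran from -0.69 to 0.12 and LHCB4.1 from -0.47 to 0.15, with 0.12 and 0.15 without GA replicate 1. A group left with 1 array is assumed to vary like the others, and the cause of these turns was not tested. The count of called probe sets stayed at 0 in the first 2 comparisons and ran from 0 to 7 in the last, with 7 without GA replicate 2. With each array left out, the median difference of the 22 photosynthesis genes ran from -0.29 to 0.18, from -0.087 to 0.25 and from 0.038 to 0.16 in the same order. Under the 8 alternatives it ran from -0.10 to -0.045, from 0.079 to 0.16 and from 0.030 to 0.077. The filter at the 60th percentile kept 12 of these genes. Low signals of MAS5 are noisy, which limits dim genes such as LHCB4.2, LHCB4.3 and LPA1.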
